A study of Ptychodera flava with 8 samples.

Results

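Chromatin regions that carried an ATAC-seq peak at early, mid and late gastrula and none at early blastula were examined in Ptychodera flava, an acorn worm of the phylum Hemichordata. Peak lists of the 4 stages were merged wherever peaks overlapped by at least 1 bp, which gave 82811 consensus regions, and 6354 of them (7.67%, Wilson 95% interval 7.49 to 7.86) showed this pattern. They were chosen by the presence or absence of a listed peak alone. They are called gastrula-gained regions below, and gained means only that a peak was listed at the 3 gastrula stages and not before. The 8 libraries came from whole animals, a pair for early blastula and a pair for each of the early, mid and late gastrula stages, and no treatment or genotype separates them. After removal of the jelly coat, embryos were gathered to 75000 cells per sample, so each list averages over every cell type of the embryo, and a region open in few cells cannot be told apart from one weakly open in many. The labels give no strain and do not say whether paired libraries stem from separate cultures. Each stage was deposited as 1 list without values per library, so no difference between stages has a replicate check and no test between stages was made. Read counts are not in the lists and the depth is unknown. Intervals below cover counting error of regions, which are not replicates of a stage.

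ATAC-seq marks stretches of DNA that Tn5 transposase can reach because nucleosomes do not cover them, and such stretches include promoters and distal enhancers. During gastrulation the germ layers form and the embryonic genome directs regional gene programmes, and enhancers of such programmes commonly become accessible as their cell types arise. A promoter used at every stage, by contrast, is usually accessible throughout. Hemichordates are the sister group of echinoderms, and their gastrula forms the gut by infolding of the blastula wall.

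Gastrula-gained regions mostly held a single peak per gastrula stage. Their median width was 357 bp, from 151 to 1771 bp, and together they covered 2.50 Mb. Of the 6354 regions, 6193 (97.5%) had 1 peak at each gastrula stage, a share not computed for other patterns. In these 6193 regions the 3 peaks shared a median of 263 bp. The median shared part was 80.6% of the merged region, and in 7 of the regions the 3 peaks had no base in common. The regions took up 13.3% of the early gastrula list (6417 of 48416 peaks), 14.8% of the mid gastrula list (6412 of 43317) and 9.94% of the late gastrula list (6433 of 64713).

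Absence at early blastula was most frequent among regions with low gastrula enrichment. Regions with a peak at all 3 gastrula stages numbered 30448, and 20.9% of them lacked an early blastula peak. That share is the selection itself and is given as a description. The regions were ranked by the deposited fold enrichment at early gastrula and split into 10 equal bins. In the lowest bin 36.2% (34.5 to 38.0) had no early blastula peak, and in the highest bin 5.98% (5.19 to 6.88) had none. With mid gastrula ranks the shares were 31.0% and 9.02%, and at late gastrula 30.4% and 10.2%. The slope was thus present at each stage. It was steepest with the ranking taken at early gastrula, the stage next to early blastula.

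**Figure D1:**
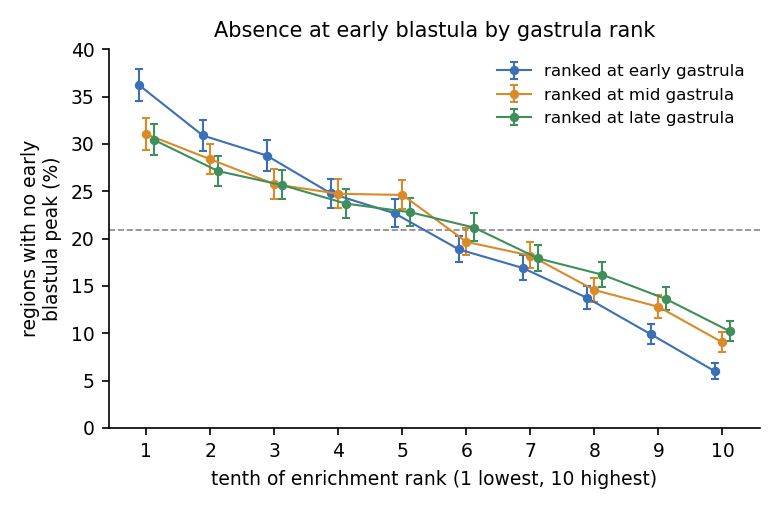
Share of regions without an early blastula peak (vertical axis, percent) in 10 equal bins of fold enrichment (horizontal axis), among the 30448 regions with a peak at all 3 gastrula stages, ranked separately at early, mid and late gastrula. Bars are Wilson 95% intervals and the dashed line is the share over all of them, 20.9%; the share falls from 36.2% to 5.98% by early gastrula rank.

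Some gastrula-gained regions lay near the threshold of a list. The irreproducible discovery rate (IDR, the expected share of peaks that do not rank alike in replicates) was at most 0.1 in every list. It was above 0.05 in 1374 of the gained regions at early gastrula (21.6%), in 1175 at mid gastrula (18.5%) and in 412 at late gastrula (6.48%). At these stages the share above 0.05 was not computed for other regions or for whole lists. Whether the gained regions differ from them at this limit was therefore not tested. Regions with an IDR of at most 0.01 at all 3 gastrula stages numbered 1603 (25.2%), beside 62.3% of the regions of all 4 stages, and 1407 of the gained ones had no early blastula peak within 500 bp either. When all 4 lists were restricted to an IDR of at most 0.01, 3751 regions had the pattern. Only 1604 of those were gastrula-gained in the whole lists, and the other 2147 (57.2%) had an early blastula peak there that was dropped by the restriction. For these 2147 regions, absence from the early blastula list depended on where that list ends. A restriction can only drop early blastula peaks and cannot add any. Whether a longer early blastula list would hold peaks at the regions gained in the whole lists was therefore not tested.

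The edge of the selection can also be read in base pairs. The gained regions closest to an early blastula peak lay on scaffold 13 at 6644857 to 6645054, on scaffold 23 at 26993294 to 26993497 and on scaffold 9 at 40268660 to 40268903, with gaps of 4, 6 and 7 bp. Just outside the selection, the regions of all 4 stages with the least overlap between an early blastula and a gastrula peak lay on scaffold 26 at 5353490 to 5353931, scaffold 15 at 14836851 to 14837365 and scaffold 7 at 268165 to 268836. Their largest overlaps were 78, 94 and 109 bp. The median gap from a gained region to the nearest early blastula peak was 4127 bp (95% interval of the median 3934 to 4345). An early blastula peak lay within 500 bp of 907 gained regions (14.3%), beside 11.5% of the regions of mid and late gastrula alone. These 907 regions had lower median enrichment percentiles (21.1, 25.4 and 32.4 from early to late gastrula) than the remaining 5447 regions (44.9, 49.2 and 59.0).

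Over the 3 gastrula stages the gained regions moved up the lists, and regions open throughout rose less. The rule requires absence at early blastula, which went most steeply with low rank at early gastrula. How far this selection alone sets the rise, here and in the ranks below, was not tested. Percentiles here rank the deposited fold enrichment within the whole list of a stage, from 0 for the weakest to 100 for the strongest. These enrichments are the authors' values and rank peaks only within a list. The median percentile of the gained regions was 40.9 (39.9 to 42.1) at early gastrula, 46.1 (45.0 to 47.0) at mid gastrula and 55.2 (54.0 to 56.6) at late gastrula. Middle values ranged widely at each stage, with quartiles of 18.5 and 66.1 at early gastrula and of 28.5 and 77.1 at late gastrula. The median change of a region from early to late gastrula was 8.02 points (7.45 to 8.48). Regions of all 4 stages changed by a median of 2.71 points (2.54 to 2.87). A rise was not particular to the gained regions. Regions of mid and late gastrula alone had median percentiles of 34.2 at mid and 50.1 at late gastrula, further apart than the gained medians at those stages. The late gastrula list is the longest, and a longer list raises the percentile of peaks above its added weak ones. With all lists cut to equal length the median change of the gained regions was 2.29 points. It was 3.70 points with the lists restricted to an IDR of at most 0.01, and 15.1 points in the whole lists when −log10 p was ranked in place of enrichment.

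List length was set aside by ranking only the 30448 regions with a peak at all 3 gastrula stages against each other. On that scale the gained regions had a median rank of 33.3, 37.9 and 39.0 from the early to the late gastrula stage, where 50 is the middle of all. Regions of all 4 stages stood at 54.9, 53.7 and 53.2. These move the opposite way by construction, because both groups share 1 ranking. The gained regions remained the weaker group at every stage. Late rank exceeded early rank in 3814 of 6354 gained regions (60.03%), beside 50.5% of all 30448. A rise of at least 20 points was seen in 1112 gained regions (17.5%, beside 9.77% of all) and a fall of that size in 505 (7.95%, beside 9.72%). Late gastrula was the stage of highest rank for 40.1% of the gained regions (33.6% of all), and early gastrula the stage of lowest rank for 46.4% (36.7% of all). The median change was 1.93 points from early to mid gastrula and 0.54 points from mid to late gastrula. Which step was larger depended on the scale, since the whole-list percentiles changed by 2.19 and 5.10 points over the same steps. A climb of at least 5 points at both steps occurred in 689 gained regions (10.8%, beside 6.58% of all), and a descent at both steps in 348 (5.48%, beside 7.46%). Ranked by −log10 p in the same set, the gained regions had medians of 23.9, 32.9 and 33.7.

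**Figure D2:**
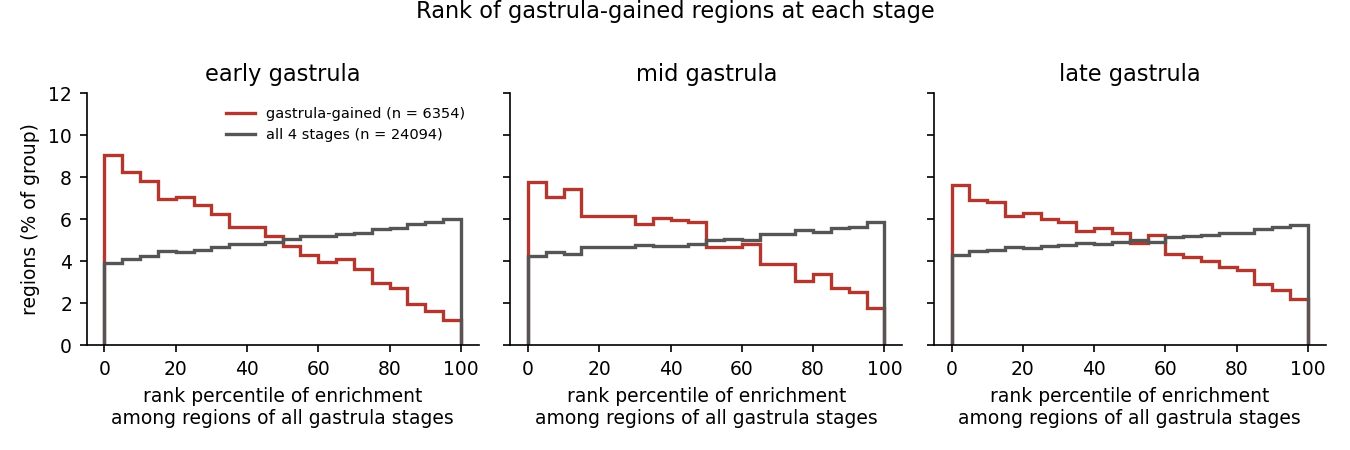
Distribution of enrichment rank (horizontal axis, percentile among the 30448 regions with a peak at all 3 gastrula stages, in bins of 5) for the 6354 gastrula-gained regions and the 24094 regions of all 4 stages, as percent of each group (vertical axis), at each gastrula stage. The gained regions lean to low ranks at each stage, with medians of 33.3, 37.9 and 39.0.

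**Figure D3:**
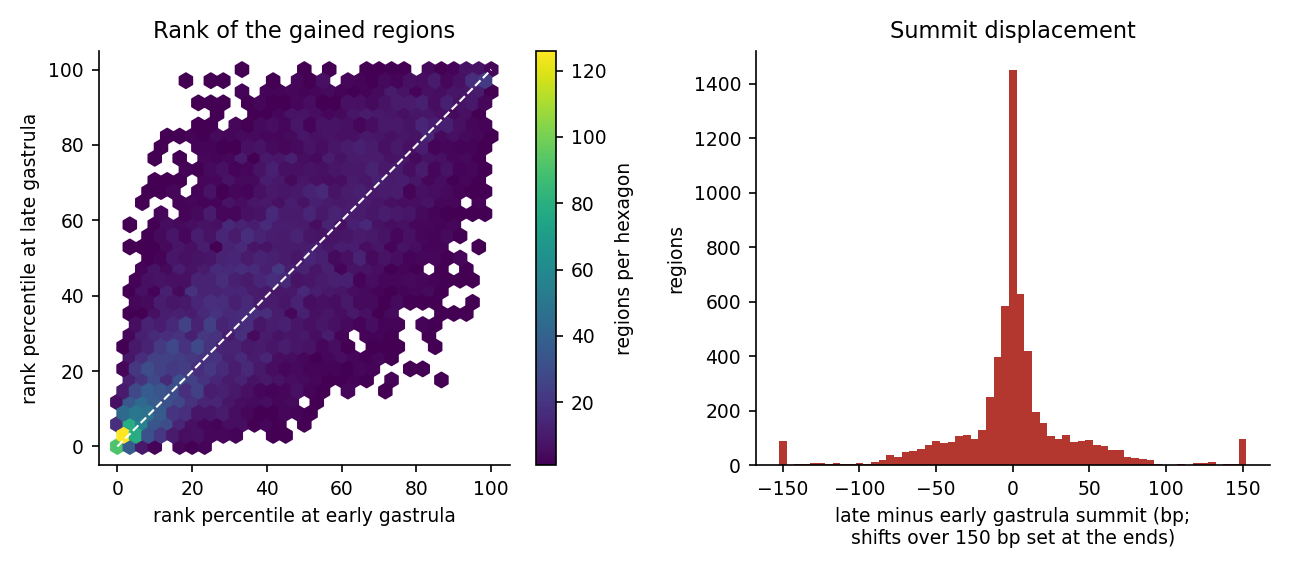
Left, rank percentile at early (horizontal) against late gastrula (vertical) for the 6354 gastrula-gained regions, with equal ranks on the dashed line and colour for the number of regions; 60.03% lie above the line. Right, number of regions by the shift of the summit from early to late gastrula in bp, with larger shifts set at the ends; the median size of the shift is 10 bp.

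Regions strong at one gastrula stage tended to be strong at the others. Across the gained regions the Spearman correlation of enrichment was 0.816 between early and mid gastrula, 0.877 between mid and late gastrula and 0.788 between early and late gastrula. In the 24094 regions of all 4 stages it was 0.883, 0.904 and 0.852. These are correlations across regions, which share lists and are not independent. The rise was greater in stronger regions. With mid gastrula rank split into 5 equal bins, gained regions in the lowest bin changed by a median of 0.76 points from early to late gastrula, and those in the highest 2 bins by 7.84 and 6.98. The maximum score of 1000, given to the most reproducible peaks, was held by 22.7%, 30.1% and 51.9% of the gained regions at the early, mid and late gastrula stages. In regions of all 4 stages these shares were 65.9%, 56.7% and 73.7%. All 3 gastrula stages were at the maximum in 925 gained regions (14.6%), beside 49.98% of the regions of all 4 stages. An enrichment percentile of at least 90 at all 3 stages was reached by 140 gained regions (2.20%), beside 10.4% of the regions of all 4 stages. One of at most 10 at all 3 was held by 381 gained regions (5.996%), beside 3.18%.

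Peaks of the gained regions widened slightly while those of regions open throughout narrowed. Median peak width in the gained regions was 298 bp at early gastrula, 312 bp at mid gastrula and 312.5 bp at late gastrula. In regions of all 4 stages it was 326, 319 and 312 bp. The median change per gained region from early to late gastrula was 11 bp (9 to 12), and in 3729 of them (58.7%) the late peak was wider, beside 47.8% of all 30448 regions. Regions of all 4 stages changed by a median of -4 bp. The widening was larger where rank was higher, from a median of 5 bp in the lowest of the 5 bins of mid gastrula rank to 20.5 bp in the highest. Whether regions that widened were those that rose in rank was not tested. Among gained regions with 1 peak per stage, the late peak reached further on both sides in 2031 (32.8%) and less far on both sides in 1239 (20.01%). Neither share was computed for other regions. With the lists restricted to an IDR of at most 0.01 the median change was 5 bp.

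Summits moved little, and slightly more often beyond 50 bp than in regions of all 4 stages. The median displacement between the early and late gastrula summit of a gained region was 10 bp (10 to 11), and it was at most 50 bp in 83.1% and over 100 bp in 291 regions (4.58%). Regions of all 4 stages had a median displacement of 8 bp, at most 50 bp in 86.3% and over 100 bp in 4.92%. The summits of all 3 gastrula stages fell within 50 bp of each other in 4631 gained regions (72.9%), beside 78.7% of the regions of all 4 stages. In 448 (7.05%, beside 6.77%) they were spread over more than 100 bp. These 448 were broader, with a median region width of 548.5 bp against 331 bp, and 41 of them (9.15%) held several peaks at some stage, against 85 (1.84%) of those within 50 bp. Within the peak the summit lay close to the middle, at a median of 49.3% of the peak length from its start at early gastrula and 49.5% at late gastrula.

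The median gained region lay closer to a region of all 4 stages than the median region of most other stage patterns. The median gap to the nearest such region was 7150 bp (6809 to 7484), over the 6347 gained regions that had one on their scaffold. Across all 58652 regions outside the 4-stage class it was 8904 bp. Regions of mid and late gastrula alone had a median of 7848 bp (7466 to 8341), those of early blastula alone 9228.5 bp (8834 to 9712), and those of early gastrula alone 11843 bp (11248 to 12463). Among the 14 patterns outside the 4-stage class, only regions of all stages but early gastrula had a smaller median, at 6468 bp (5850 to 7147). The interval of the gained regions overlapped that one and those of 3 further patterns, namely mid and late gastrula alone, early blastula and late gastrula alone, and all but late gastrula. At short range the order differed: each of the 7 other patterns with an early blastula peak had a larger share within 1000 bp, from 18.8% to 24.5%. Regions of all 4 stages were 5416 bp from the next of their kind. Of the gained regions, 41.0% lay within 5000 bp (beside 35.8% of all regions outside the class), 16.5% within 1000 bp (beside 16.1%) and 10.6% more than 50000 bp away (beside 12.3%). With the lists restricted to an IDR of at most 0.01 the median was 12312 bp. Of the gained regions in that setting, 57.2% were regions of all 4 stages in the whole lists. The cause of the longer gap was not tested.

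**Figure D4:**
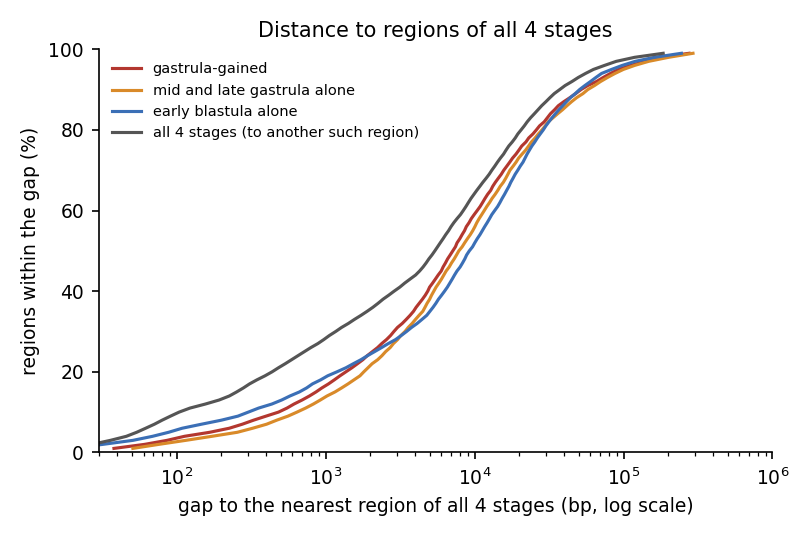
Cumulative share of regions (vertical axis, percent) by the gap to the nearest region of all 4 stages (horizontal axis, bp on a log scale) for 4 stage patterns. The gastrula-gained regions, with a median of 7150 bp, lie to the right of the regions of all 4 stages (5416 bp) and at their median to the left of the other patterns drawn.

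Enrichment of the gained regions differed strongly with this distance, and −log10 p hardly did. Gained regions within 1 kb of a region of all 4 stages (1047 regions) had a median enrichment percentile of 17.6 at early gastrula and 27.5 at late gastrula. Those over 50 kb away (671 regions) had medians of 69.3 and 80.0. Ranked by −log10 p, the same nearest regions had medians of 38.5 and 56.3, and the most distant ones 44.1 and 62.3. The same split appeared with the number of other consensus regions within 10 kb. The 646 gained regions with none had a median enrichment percentile of 71.5 at early gastrula, and the 1456 with 6 or more had 15.1, whereas their −log10 p percentiles were 44.1 and 41.9. Peak width at early gastrula differed little, at 279 and 306 bp. Regions of mid and late gastrula alone showed the same contrast when split into 5 bins of mean percentile. From the lowest to the highest bin their median gap to a region of all 4 stages went from 1975 to 18300.5 bp by enrichment. By −log10 p it went from 6639 to 9393 bp. Gained regions split in this way went from 1605 to 19430.5 bp and from 6040 to 8580.5 bp. Enrichment is a fold over a background that the peak caller estimates. Whether a background raised by neighbouring peaks enters these values was not tested, and ranks of enrichment between crowded and isolated regions are to be read with this difference in mind. The change in rank from early to late gastrula was positive in each class of distance, from a median of 1.70 points within 1 kb to 6.59 points beyond 50 kb.

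**Figure D5:**
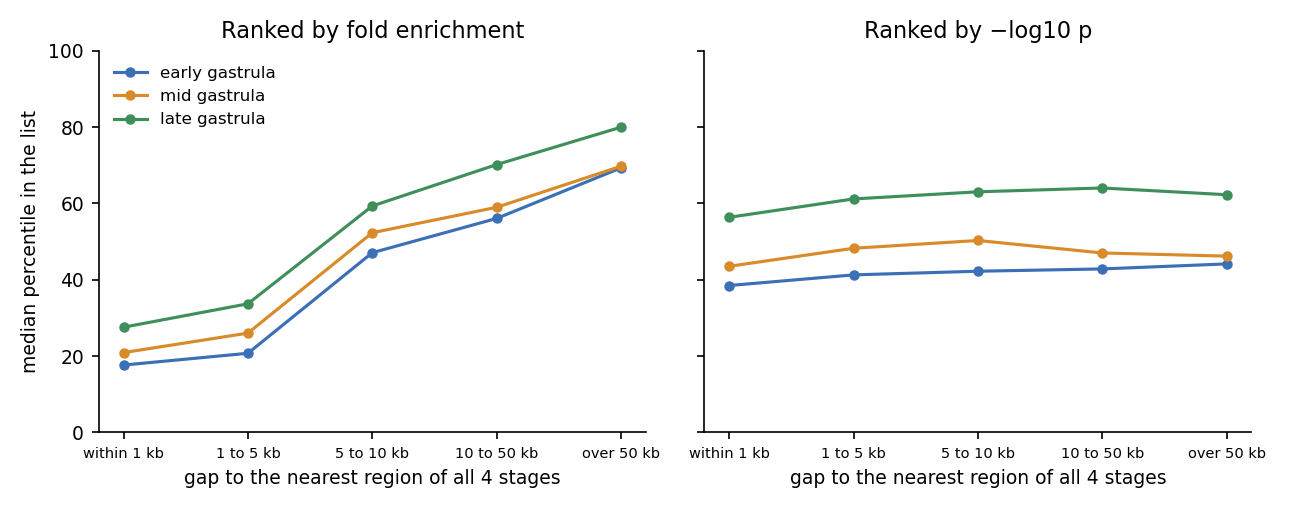
Median percentile of the gastrula-gained regions within the list of each gastrula stage (vertical axis) by gap to the nearest region of all 4 stages (horizontal axis, 5 classes), ranked by fold enrichment (left) and by −log10 p (right). At early gastrula the enrichment medians run from 17.6 to 69.3 and the −log10 p medians from 38.5 to 44.1.

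Regions of all 4 stages near a gained region, whose own values were not used in the selection, were compared in the same way. Ranked by enrichment among the 24094 regions of their class, those with a gained region within 5000 bp and no region of early blastula alone within that distance (2824 regions) stood lower at late gastrula than at early blastula, with a median change of -6.12 points (-6.80 to -5.36). Late rank was higher in 32.4% of them, beside 50.9% of the class. Those with a region of early blastula alone within 5000 bp and no gained region (3310) had a median change of 4.004 points (3.37 to 4.57), and late rank was higher in 62.3%. With neither nearby the change was 0.56 points (0.32 to 0.81). Ranked by −log10 p these changes were -1.89 (-2.83 to -0.96), -0.48 (-1.20 to 0.18) and -0.03 (-0.27 to 0.20). The fall was not limited to neighbours of gained regions. Without regard to other neighbours, regions of all 4 stages whose nearest gained region lay within 1 kb changed by -5.50 points in enrichment rank (-6.81 to -4.34), and by -4.82 points (-5.72 to -4.06) where it lay 1 to 5 kb away. Beside regions of mid and late gastrula alone the changes at these distances were -4.34 (-6.01 to -2.96) and -6.27 points (-7.12 to -5.45). At 5 to 10 kb the change was -0.13 points (-0.70 to 0.38) beside gained regions. Beside regions of mid and late gastrula alone it was -0.78 points (-1.52 to -0.12) there. Enrichment of these neighbours is also a ratio over background. Whether nearby gained peaks enter that background was not tested.

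Gained regions lay next to each other somewhat more often than regions as a whole lay next to them, but hardly more often than regions of mid and late gastrula alone. A gained region was the next consensus region on at least 1 side for 1215 gained regions (19.1%, 18.2 to 20.1), beside 14.6% of all regions. The share was 18.1% (17.2 to 19.1) for regions of mid and late gastrula alone, with an interval that overlapped that of the gained regions. It was 11.5% for regions of early blastula alone. Another gained region lay within 5000 bp of 1198 gained regions (18.9%, beside 13.0% of all regions), and the median gap to the nearest one was 25535 bp. Rank changes of neighbouring gained regions from early to late gastrula were at most weakly related. Across 649 adjacent pairs their Spearman correlation was 0.07, and 53.9% of the pairs had the same direction. Adjacent pairs of other regions were not compared. Runs of consecutive gained regions were short, with 499 runs of 2, 54 of 3, 10 of 4 and 3 of 5.

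The first run of 5 in scaffold order spanned 5401 bp of scaffold 9, at 43991964 to 43997364. Its members had low enrichment, with percentiles of 1.59 to 7.45 at early gastrula, 1.90 to 15.6 at mid gastrula and 3.30 to 23.4 at late gastrula, and 4 of the 5 ranked higher at late than at early gastrula. Its nearest early blastula peak was 29498 bp away. A second run of 5 spanned 13804 bp of scaffold 12, at 12140791 to 12154594, with percentiles of 10.7 to 86.3 at early gastrula and 40.4 to 71.2 at late gastrula. Only 1 of its 5 members ranked higher at late gastrula. The fullest windows of 100 kb held 10 gained regions each, a number that 3 windows reached. On scaffold 5 at 44800001 to 44900000 these stood beside 16 regions of all 4 stages among 41 regions, and 8 of the 10 ranked higher at late than at early gastrula. On scaffold 16 at 15300001 to 15400000 they stood beside 14 such regions among 43, and 9 of the 10 ranked higher. Such windows were rare. Of 3835 windows with a gained region, 2343 held exactly 1 and 100 held 5 or more.

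Across scaffolds the gained regions followed the density of all regions. The 27 scaffolds of at least 10 Mb held 6254 of them (98.4%), beside 98.2% of all regions. Their density ran from 1.81 per Mb on scaffold 27 to 8.82 per Mb on scaffold 14. As a share of all regions on a scaffold the range was narrower, from 5.54% (3.75 to 8.11) on scaffold 27 to 8.61% (7.72 to 9.59) on scaffold 5. The intervals of these extremes overlapped.

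The strongest gained regions by mean percentile over the gastrula stages were on 5 different scaffolds. First was scaffold 24 at 5449135 to 5449561, with a fold enrichment of 19.3, 26.1 and 26.9 over the 3 gastrula stages, and percentiles of 99.1, 99.9 and 99.97. Its peak was 342 bp wide at early and 427 bp at late gastrula, its 3 summits lay within 14 bp, and the nearest early blastula peak was 5596 bp away. Second was scaffold 16 at 26746666 to 26747126, with enrichments of 19.1, 25.9 and 23.5, and no early blastula peak within 125857 bp. It was followed by scaffold 7 at 35625099 to 35625459 (18.8, 20.7 and 23.9), scaffold 2 at 38363254 to 38363756 (19.3, 20.8 and 20.1) and scaffold 9 at 18447690 to 18447948 (18.9, 21.6 and 19.3). All 5 had the maximum score at each gastrula stage, except the last at mid gastrula, where it was 734. Their gaps to a region of all 4 stages ran from 5554 bp at the first to 150662 bp at the second.

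Regions with the steepest climbs were picked for their rise, which requires a low start. The region on scaffold 23 at 17553515 to 17553921 went from the 22.3 percentile at early gastrula to 92.2 and then 98.7, and its peak widened from 160 to 368 and 373 bp. Its early gastrula peak had a score of 465, and its nearest early blastula peak was 154871 bp away. On scaffold 12 at 30343289 to 30343617 the percentiles were 15.8, 66.6 and 90.9, and on scaffold 23 at 6483226 to 6483789 they were 14.2, 81.4 and 89.2. Scores at early gastrula were 427 and 429 at these sites and 1000 at late gastrula. In each of the 3 the larger part of the climb fell between early and mid gastrula.

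The steepest descents ran the other way over the same stages. The region on scaffold 9 at 19528354 to 19529354 fell from the 91.2 percentile at early gastrula to 57.3 and 29.6, while its peak remained broad at 824, 868 and 749 bp and its score stayed at 1000. On scaffold 9 at 23835403 to 23835758 the percentiles were 78.3, 28.5 and 23.8, with scores of 1000, 597 and 729. On scaffold 15 at 4237732 to 4238123 they were 84.3, 38.6 and 30.8, and another gained region lay 352 bp away. In each of these 3 the larger part of the descent also fell between early and mid gastrula.

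The gained regions farthest from any region of all 4 stages lay on scaffolds 26 and 3. The site on scaffold 26 at 2875712 to 2875936 was 1546046 bp from the nearest such region and 1223647 bp from the nearest other gained region, with percentiles of 51.7, 58.4 and 74.4. On scaffold 3, the sites at 1933650 to 1933872 and at 2230161 to 2230554 were 1218000 and 921318 bp away. The first of these had percentiles of 60.03, 54.2 and 56.1. The second was among the stronger gained regions, with percentiles of 86.4, 97.6 and 99.2 and a peak that widened from 297 to 394 bp between early and late gastrula.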

How the data were processed

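Whole embryos were profiled by ATAC-seq at 4 stages with 2 libraries each. Bowtie2, bedtools and MACS2 are named, without versions or settings, per the submitters' processing notes. The sources used here do not give the genome build, any Tn5 shift or whether replicates were pooled for peak calling. For each stage there is 1 deposited list of IDR peaks with 12 columns and no header. In the order of the IDR tool, the deposited score (at most 1000) follows from the IDR, the deposited fold enrichment is a ratio over background, the deposited −log10 p is the peak caller's, and another deposited column gives the summit offset from the peak start.

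Peaks were merged where they overlapped by at least 1 bp. At each stage the peak of highest enrichment stood for a region. Percentiles are average ranks within a list. Shares carry Wilson 95% intervals, and medians carry exact binomial 95% intervals of the order statistics. Gaps are bases between region edges, and starts were converted to 1-based positions. Scaffold lengths come from the scaffold names or, where larger, the last peak end. The members and lists were chosen with earlier results of these data known. Sites were named by rule: among regions with 1 peak per gastrula stage, the 5 of highest mean enrichment percentile and the 3 greatest rises and falls; then the 3 farthest from regions of all 4 stages on scaffolds of at least 10 Mb, the first 2 of the longest runs and of the fullest 100 kb windows, and 3 sites on each side of the early blastula criterion. Ranks among regions of all gastrula stages, and −log10 p beside enrichment by distance, were added after the data were seen. Merging and gaps were tested on simulated data. Genes and sequence were planned and not analysed here, since no build is named. Figures were drawn with Matplotlib 3.10.9, and values computed with SciPy 1.17.1, pandas 2.3.3 and NumPy 2.4.6 under Python 3.11.15.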

Additional observations from a re-analysis of the deposited data

How the results depend on the processing

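No paired analysis was possible because the lists carry no values per library, and leaving out a library could not be tried either. The planned motif alternative was not run. No change in percentile, in width or in nearby regions of all 4 stages turned direction under an alternative. Counts, gaps, displacements and shares cannot be negative and could not turn. Of 53 values under alternatives, 32 moved by less than their interval or, for the count of gained regions, by less than 1.5 times. Some of these could not move. Letting the widest peak stand for a region leaves the merged regions as they are. The count, the gap to regions of all 4 stages and the share with a gained region as next region were thus fixed in that setting. Restriction to an IDR of at most 0.01 gave 3751 gained regions, a median percentile change of 3.70 points, a width change of 5 bp, a summit displacement of 9 bp, a gap of 12312 bp to regions of all 4 stages, 22.2% with a gained region as next region, and -6.17 points for regions of all 4 stages within 5000 bp of a gained region (main value -5.08). At an IDR of at most 0.05 these were 6.40 points, 8 bp for width, 8059 bp and 20.3%. Equal list lengths gave 2.29 points, 7597.5 bp and -5.81 points. Windows of 200 bp around summits gave a width change of 8 bp and -4.21 points. Requiring no early blastula peak within 500 bp gave a gap of 8637 bp. Ranking by −log10 p gave 15.1 points for the gained regions. Alternatives chosen after seeing the data were ranks among regions of all 3 gastrula stages (2.92 points), −log10 p for nearby regions of all 4 stages (-1.84 points), leaving out gained regions within 5000 bp of each other (7714 bp), and every alternative for the nearby regions of all 4 stages. Stricter lists hold fewer peaks, and the causes of these shifts were not tested. Of the 5277 gained regions at equal list lengths, 4904 were also gained in the whole lists.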

Other observations

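The consensus regions flanking gained regions were of mixed patterns. Of 12695 flanks, 27.5% were regions of all 4 stages (29.1% over the flanks of all regions), 20.3% were of late gastrula alone (18.7%), 8.98% of mid and late gastrula alone (7.24%) and 7.89% of early blastula alone (10.2%). Gained regions set between regions of all 4 stages on both sides numbered 502 (7.90%). The same share over all regions was not computed.

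Several peaks at some gastrula stage were found in 161 gained regions (2.53%). The late gastrula list had more peaks than the early gastrula list in 66 of the gained regions, and fewer in 51. Such counts were not made for other regions.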
